A study of Homo sapiens with 4 samples.

Results

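The genes described here are 10 matrix metalloproteinases, MMP7 and 9 of its relatives (MMP1, MMP2, MMP3, MMP9, MMP10, MMP13, MMP14, MMP15 and MMP28). They were taken by name from the probe annotation of the arrays, which lists 31033 gene names, and they were measured by 12 of the 50238 probes that are not controls. A search by current RefSeq symbols added 0 probes. The RNA came from clones of HCT116, an established colorectal carcinoma cell line, and 4 single color arrays were hybridized, 2 with RNA of the vector control clone (vec) and 2 with RNA of the PKP3 knockdown clone (shpkp3-2). The knockdown clone stably expresses a short hairpin RNA against plakophilin 3 (PKP3), a plaque protein of desmosomes, from a plasmid. Both clones were kept under selection, with 5 μg/ml of puromycin according to the sample labels and 5 μg/ml of blasticidin according to the methods of the study. Each group is a single clone, so that every difference given here is a difference between 1 vector control clone and 1 knockdown clone. The first array of each clone was made from RNA collected on the same occasion, and the second array of each clone from RNA collected on another.

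Matrix metalloproteinases are zinc dependent endopeptidases that are made as inactive proenzymes and cut proteins of the extracellular matrix and of the cell surface. MMP7, or matrilysin, is a small member of the family without the hemopexin domain of most others, and it is made by epithelial cells and by many colorectal tumors. The family includes collagenases (MMP1, MMP13), stromelysins (MMP3, MMP10), gelatinases (MMP2, MMP9) and enzymes anchored in the membrane (MMP14, MMP15), and several of its genes lie side by side in a cluster on chromosome 11.

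On these arrays MMP7 rose 2.93-fold in the shpkp3-2 clone, and it was the single gene of the 10 that limma called changed. MMP10 lay lower in shpkp3-2 and MMP9 higher, but neither passed the threshold. Of the others, MMP1, MMP14, MMP15 and MMP28 were measured with smaller differences that did not pass the test either. MMP2, MMP3 and MMP13 were not well above background on any array.

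What each probe reads is shown by its sequence, as one 60-base oligonucleotide stands for the whole gene in most cases. The probes of MMP7, MMP10 and MMP1, whose genes belong to the same cluster, and the brighter probe of MMP28 are given here 5′ to 3′ from the deposited annotation, in lower case.
MMP7: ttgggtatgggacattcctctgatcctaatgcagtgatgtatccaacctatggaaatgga
MMP10: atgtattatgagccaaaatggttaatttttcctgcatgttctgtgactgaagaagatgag
MMP1: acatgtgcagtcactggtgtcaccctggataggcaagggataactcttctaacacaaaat
MMP28: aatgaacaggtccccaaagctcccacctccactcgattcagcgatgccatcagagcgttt
The files list them under the transcripts NM_002423, NM_002425, NM_002421 and NM_024302. MMP15 and MMP28 each have 2 probes and the other 8 genes have 1.

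Across the arrays, between 60.5% and 63.5% of spots were well above background, the flag by which the scanner software calls a spot detected, and 0 spots were saturated. The intensities of all spots that are not controls summed to between 115635392 and 130032824 per array. PKP3, the target of the hairpin, had intensities of 20850.4 and 22839.8 in vec against 3414 and 3078 in shpkp3-2, a log2 fold change of -2.54 (SE 0.23, limma adjusted p = 0.0188). All arrays lay on 1 slide with the arrays of a clone side by side, and slide position cannot be told apart from clone. In RNA of a whole culture, fewer cells of a type and less RNA per cell cannot be told apart. Of 10 intestinal epithelium markers, 7 could be tested and 0 were called by limma (0.396% of all probes tested), all 7 had a positive log2 fold change with a median of 0.23, CEACAM5 and CDX1 were well above background on no array, and the summed intensity was 476713 to 549070 in vec and 531255 to 534733 in shpkp3-2. Of 8 fibroblast markers, 6 were on no array, with sums of 1041 to 1351 in vec and 747 to 799 in shpkp3-2. Of 8 macrophage markers, CD163, MRC1 and PTPRC were on no array and 5 could be tested. MARCO, at a log2 fold change of 0.61, entered the test through shpkp3-2, in which it was high, so its sign is not counted. CD14 at 0.22, AIF1 at 0.08, CD68 and CSF1R were on all 4 arrays with a positive log2 fold change, and the clones overlapped for CD14 and AIF1. CD68 and CSF1R had a limma unadjusted p under 0.05 (7.36% of all probes tested were higher at that p). CD68, a lysosomal protein used as a macrophage marker, was called higher with a log2 fold change of 1.43 (limma adjusted p = 0.0459, where 0.249% of all probes tested were called higher), CSF1R, the receptor of a macrophage growth factor, was at 0.97 (limma adjusted p = 0.258), and the summed macrophage list was 293 to 431 in vec and 582 to 686 in shpkp3-2. The cultures were clones of HCT116, and a relation of CD68 and CSF1R to the values of MMP7 and MMP9 was not tested.

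MMP7 was measured by 1 probe that was well above background on all 4 arrays. Its intensity was 163 and 134 in vec against 386 and 361 in shpkp3-2. Both arrays of the knockdown clone lay above both arrays of the vector control, and the arrays of a clone lay close to each other. On the normalized scale, the log2 intensity less the 75th percentile of the array, MMP7 was at -1.56 ± 0.07 (SD, n = 2) in vec and at -0.01 ± 0.06 (SD, n = 2) in shpkp3-2. This gave a log2 fold change of 1.55 with a 95% interval of 1.12 to 1.98, and the adjusted p was 0.0399 from limma over all 30520 probes tested. An exact permutation test over the arrays gave a two-sided p of 0.333, the smallest that 2 arrays against 2 allow. The rise was present in both RNA collections, with differences of 1.64 and 1.46 on the log2 scale. Among all probes tested, 0.475% had a log2 fold change as high as that of MMP7 or higher. The size of the rise moved little when any array was left out, between 1.499 and 1.60, but the call was lost without vec 2 (limma adjusted p = 0.0577), shpkp3-2 1 (0.117) or shpkp3-2 2 (0.0803). The call was also lost with quantile normalization (0.0543), with no filter on detection (0.224) and with a weaker detection flag (0.175), while with the RNA collection as a block the adjusted p from limma was 0.000543.

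**Figure D1:**
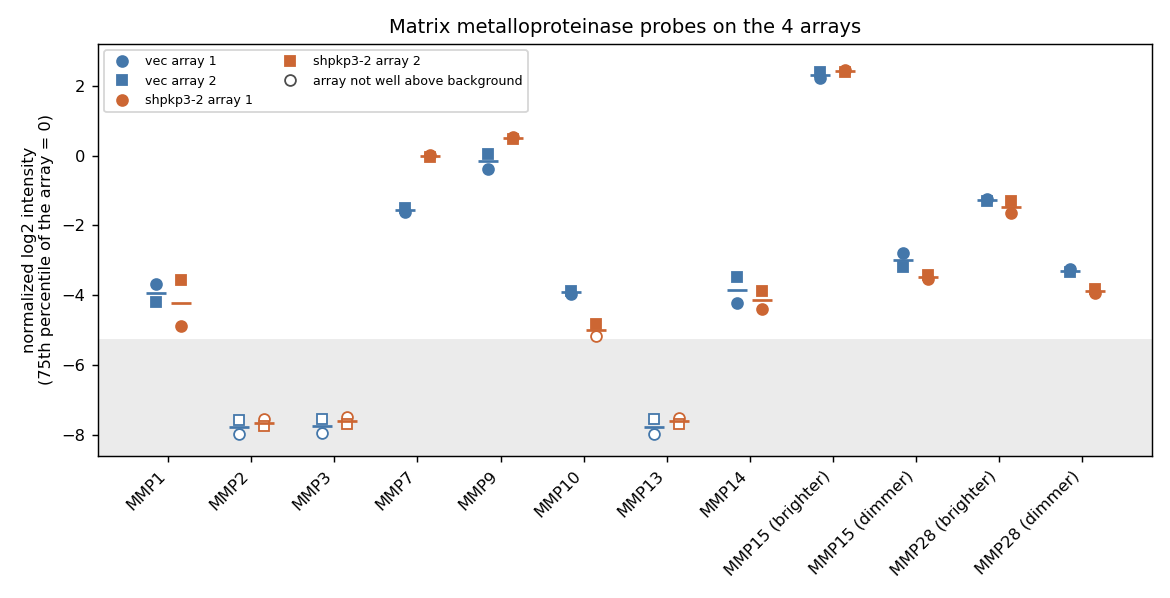
Normalized log2 intensity of the 12 metalloproteinase probes on each array, with 0 at the 75th percentile of the array, circles for the first and squares for the second array of a clone, and bars at the mean of a clone. Open symbols mark arrays on which a probe was not well above background. The grey band lies below the lowest value of a probe well above background, taken from the array where that value was highest. MMP7 shows the widest gap between the clones, MMP2, MMP3 and MMP13 lie in the grey band, and heights of different probes are not comparable as levels.

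Over the 9 probes of 7 genes that could be tested, limma called 1 probe, that of MMP7, as higher, where 0.396% of all probes tested were called and 0.249% were called higher. A probe entered the test if a clone had it well above background on both of its arrays. MMP10 entered through the vec arrays, the clone in which it read higher, so the next counts, of overlap, of p-values and of signs, leave it out and are taken over the 8 probes detected on all 4 arrays and set beside the 28889 probes of the array for which the same held. The clones did not overlap for 5 of the 8 probes, against 44.5% of those 28889, with 3 probes above (26.9%) and 2 below (17.6%). At an unadjusted p under 0.05, limma gave 2 of the 8 as higher (6.54% of the 28889) and 1 as lower (4.29%), and past the adjusted threshold it gave 1 as higher (0.135%). Taking the brightest probe of a gene, 3 of these 6 genes had a positive and 3 a negative log2 fold change, and their median was -0.05, while the median over the 28889 probes was 0.05. A rule without a test, a difference of at least 2-fold from the mean of vec on each shpkp3-2 array, was met by MMP7 and by 1.74% of all 30520 probes tested. At 1.5-fold it was met by MMP7 and MMP9, and by 6.88% of the 30520. MMP10 met it as well, but is not counted because it was tested through the clone in which it was high.

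**Figure D2:**
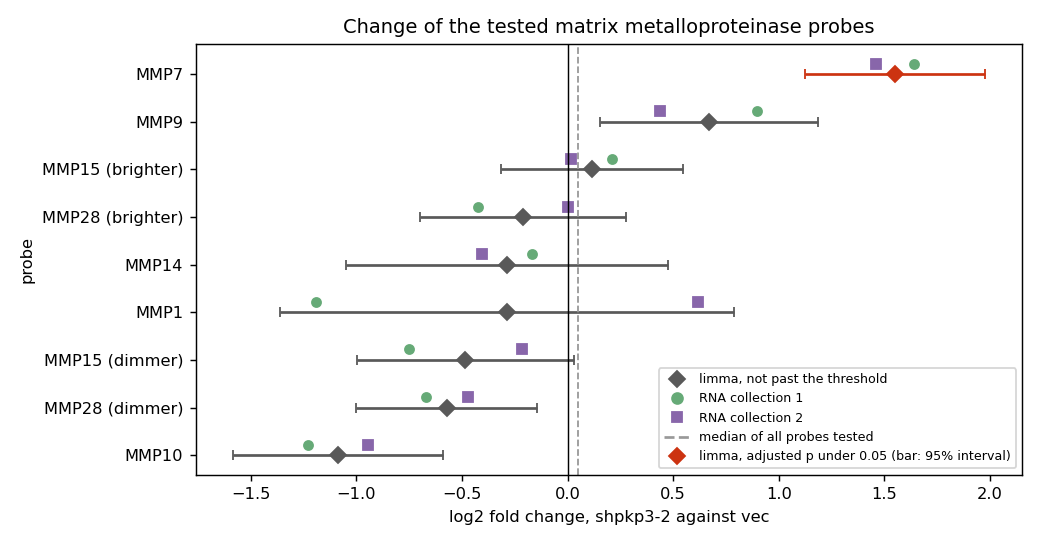
Log2 fold change of shpkp3-2 against vec for the 9 tested probes, as diamonds with 95% intervals from limma, with the difference within each RNA collection as a circle and a square above it. MMP7 at 1.55 is the single probe past the adjusted threshold. The collections point in opposite directions for MMP1 and, near 0 in the second, for the brighter probe of MMP28. They point in the same direction for all other probes shown.

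The stromelysin MMP10, which cuts proteoglycans and activates other proenzymes, lay on the other side of 0 from MMP7. Its intensity was 32.2 and 26.1 in vec against 10.5 and 13.3 in shpkp3-2. Both arrays of the knockdown clone lay below both arrays of the vector control, and the lower of them was not well above background. The log2 fold change was -1.09 with a 95% interval of -1.58 to -0.59 (limma adjusted p = 0.142), or 2.12-fold lower. Of the 2 shpkp3-2 arrays, 1 was well above background. The differences within the RNA collections were -1.23 and -0.94. With the collection as a block the limma adjusted p was 0.0224, and 2.76% of all probes tested passed. As MMP10 was admitted to the test through the clone in which it was high, these p-values describe its values and are not independent of the filter. With normexp background correction, which also adds an offset of 50 to every intensity, the log2 fold change was -0.14, and the part of the background removal and that of the offset were not tested.

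The gelatinase MMP9, which cuts denatured collagens and basement membrane collagen, had an intensity of 384 and 395 in vec against 544 and 525 in shpkp3-2. Both shpkp3-2 arrays lay above both vec arrays. The log2 fold change was 0.67 with a 95% interval of 0.15 to 1.18 (limma unadjusted p = 0.0195, adjusted p = 0.309), or 1.59-fold. Within the RNA collections the difference was 0.90 and 0.44. MMP2, the other gelatinase, had intensities of 1.74 to 2.02, and on all 4 arrays the software had replaced its signal by a surrogate value. The same held for the stromelysin MMP3, with intensities of 1.81 to 2.10, and for the collagenase MMP13, with intensities of 1.82 to 2.06. The lowest intensity of any probe well above background was 8.41 to 9.74, depending on the array, and some probes above it lacked the flag. No fold change can be given for these 3 genes, and a change among intensities below it was not detectable on these arrays.

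The collagenase MMP1, which cuts fibrillar collagens, had an intensity of 38.6 and 20.8 in vec against 12.9 and 31.4 in shpkp3-2. The clones overlapped, and the widest gap was between the arrays of shpkp3-2. The log2 fold change was -0.29 with a 95% interval of -1.36 to 0.79 (limma adjusted p = 0.819). It was -1.19 in the first RNA collection and 0.62 in the second, and it turned to 0.36 without shpkp3-2 1 and to 0.10 with normexp background correction. A fall of 2-fold lies within the interval of MMP1, and a rise of the size of MMP7 lies outside it.

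None of the 3 probes of the membrane anchored enzymes passed the threshold. MMP14, which activates the proenzyme of MMP2 at the cell surface, had an intensity of 26.6 and 34.0 in vec against 18.0 and 25.2 in shpkp3-2. The clones overlapped on the normalized scale, with a log2 fold change of -0.29 and a 95% interval of -1.05 to 0.48 (limma adjusted p = 0.736). MMP14 turned to 0.09 without vec 2 and to 0.04 with normexp background correction. The brighter probe of MMP15, a close relative of MMP14, read 2344 and 1993 in vec against 2062 and 1981 in shpkp3-2. Its log2 fold change of 0.11 had a 95% interval of -0.32 to 0.55 (limma adjusted p = 0.819), an interval that does not contain the rise of MMP7. The dimmer probe of MMP15 is printed on 11 spots of each array and read 72.4 and 41.9 in vec against 32.8 and 35.5 in shpkp3-2 as means over its spots. Its log2 fold change was -0.48 (limma adjusted p = 0.433), opposite in sign to that of the brighter probe, and the mean of both probes was -0.18. Without vec 1 the dimmer probe was at -0.28 and the brighter at 0.04, and with normexp background correction they were at -0.12 and 0.06. The spots of the dimmer probe had an SD of 0.12 to 0.20 on the log2 scale within an array.

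MMP28, or epilysin, is a secreted enzyme of epithelia. Its brighter probe read 213 and 155 in vec against 120 and 152 in shpkp3-2. The clones overlapped on the normalized scale, and the log2 fold change was -0.21 (SE 0.20, limma adjusted p = 0.695). The dimmer probe read 52.1 and 37.7 in vec against 24.9 and 26.7 in shpkp3-2, with each shpkp3-2 array below each vec array. Its log2 fold change was -0.57 with an SE of 0.17 (limma unadjusted p = 0.0173, adjusted p = 0.303). With normexp background correction the brighter and the dimmer probe were at -0.12 and -0.13, and without shpkp3-2 1 the brighter was at -0.03. Neither probe of MMP28 passed the threshold.

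To see whether the rise of MMP7 differed from the change of each relative, the normalized log2 value of the relative was subtracted from that of MMP7 within each array, and the clones were compared on this difference. The difference was higher in shpkp3-2 for all 8 other probes tested, without overlap of the clones, which also held for 98.3% of all other probes tested. It thus describes the size of the rise of MMP7 and sets no metalloproteinase apart from other genes. Between the clones it changed by 2.12 and 1.76 against the dimmer and the brighter probe of MMP28, and 2.03 and 1.43 against the dimmer and the brighter probe of MMP15. It changed by 1.84 against MMP1, 1.83 against MMP14 and 0.88 against MMP9, the smallest of the 8. Against MMP10, which was detected on 1 of 2 shpkp3-2 arrays and had entered the test through vec, it changed by 2.63. With normexp background correction and with quantile normalization the clones did not overlap in any of the 8 either. With 2 arrays against 2 the exact permutation test gave a two-sided p of 0.333 for each, also after Benjamini-Hochberg adjustment over the 8, which is as low as it can go.

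**Figure D3:**
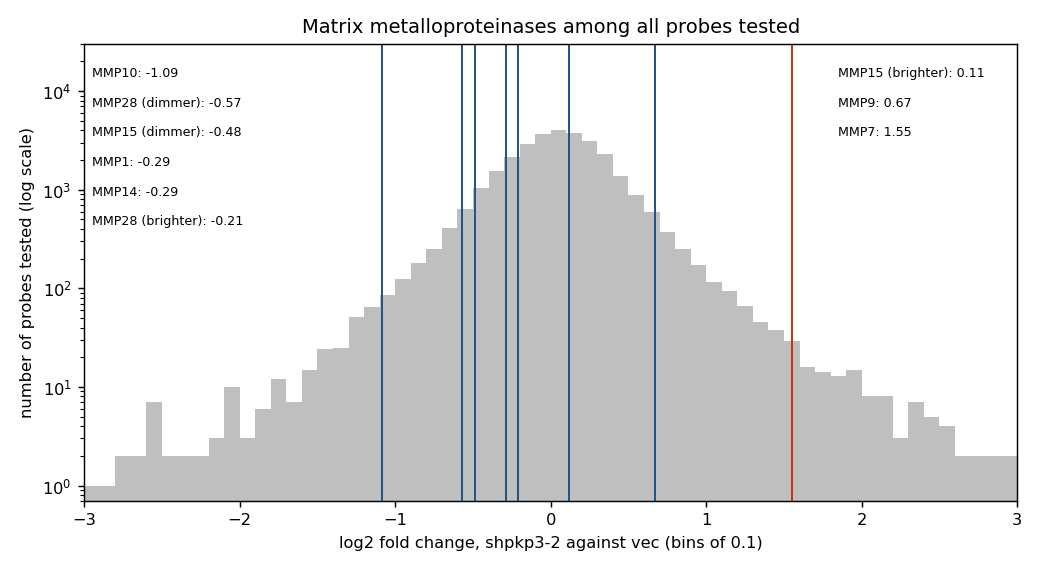
Number of probes by log2 fold change of shpkp3-2 against vec over all 30520 probes tested, on a log scale and in bins of 0.1, with vertical lines at the 9 metalloproteinase probes and their values printed. MMP7 at 1.55 lies in the upper tail and MMP10 at -1.09 in the lower tail, and the other probes lie between -0.57 and 0.67. The 50 probes beyond 3 in size are outside the axis.

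MMP7, MMP10 and MMP1 belong to a run of 9 metalloproteinase genes on chromosome 11, in the order MMP7, MMP20, MMP27, MMP8, MMP10, MMP1, MMP3, MMP12 and MMP13 in RefSeq (GRCh38.p14). Of these 9 genes, 3 were well above background on at least 1 array, namely MMP7, MMP10 and MMP1, and 6 were on none. The 3 detected genes of the run had log2 fold changes of 1.55 for MMP7, -1.09 for MMP10 and -0.29 for MMP1.

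As MMP7 and MMP10 lay on opposite sides, the 250 bases before their transcription starts are given from a RefSeq promoter table (GRCh38.p14), in which MMP7, MMP10, MMP14 and MMP15 were matched, 4 of the 10 genes. The promoters of the others were not analysed here. The interval of MMP7 is chr11:102530748-102530997 and that of MMP10 is chr11:102780629-102780878, both on the minus strand and printed 5′ to 3′ along the gene. Capitals mark the letters TGANTCA, a pattern with any base at N that is looser than the core bound by AP-1 factors. They also mark CTTTGA or its reverse complement TCAAAG, a core bound by TCF/LEF factors.
MMP7: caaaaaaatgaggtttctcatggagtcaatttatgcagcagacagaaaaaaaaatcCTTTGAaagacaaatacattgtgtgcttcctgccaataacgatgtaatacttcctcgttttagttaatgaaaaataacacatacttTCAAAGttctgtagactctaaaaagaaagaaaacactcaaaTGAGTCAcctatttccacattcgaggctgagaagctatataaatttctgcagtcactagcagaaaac
MMP10: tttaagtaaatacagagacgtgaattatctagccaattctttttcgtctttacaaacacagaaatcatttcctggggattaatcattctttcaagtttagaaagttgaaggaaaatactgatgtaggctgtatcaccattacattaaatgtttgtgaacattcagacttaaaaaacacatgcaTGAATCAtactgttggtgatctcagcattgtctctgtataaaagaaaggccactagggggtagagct
The letters TGANTCA, searched on both strands, begin 67 bases before the start in MMP7, as TGAGTCA, and in MMP10, as TGAATCA. Of 35116 promoter windows of the same length, 6.57% hold this loose pattern. The TCF/LEF letters, also searched on both strands, occur 2 times in MMP7, at 194 bases and at 108 bases before the start, and 0 times in MMP10, and 11.2% of windows hold them. The letters AGGAAG on either strand, the core of the PEA3 group of ETS factors, occur 2 times in MMP7, 0 times in MMP10 and in 28.7% of windows. TATAAA on the gene's own strand begins 30 bases before the start in MMP7 and 31 bases before it in MMP10, and 6.8% of windows hold it. The windows of MMP14 and MMP15 hold 0 matches to each of these motifs. A match describes the letters alone.

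The transcripts of factors related to metalloproteinase promoters were measured on the same arrays, and not all of them bind the letters above. Of 22 genes, CTNNB1 and factors of the AP-1, ETS, TCF/LEF, STAT, NF-κB and SP groups, 21 could be tested. Of these, 12 had a positive and 9 a negative log2 fold change, and limma called 0. At an unadjusted p under 0.05, limma gave 3 higher and 2 lower, where 7.36% and 4.98% of all probes tested, 12.3% in all, had such a p. Their median was 0.07, against 0.05 over all probes tested, and they ran from -0.85 for FOS, an AP-1 subunit, to 0.70 for JUNB, another AP-1 subunit. Both ends rest on 1 vec array, as FOS was -0.04 without vec 1, where ETV1 at -0.53 was the lowest, and JUNB was 0.39 without vec 2, where ELF3 at 0.76 was the highest. LEF1 was well above background on none of the arrays.

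Among 14 other metalloproteinase genes, 13 had a probe and 5 could be tested, while 8 were not well above background on any array. limma called 0 of the 5, with 2 higher at an unadjusted p under 0.05 (7.36% of all probes tested), and their median log2 fold change was 0.45 (0.05 over all probes tested). The lowest was MMP17, an enzyme anchored by a lipid, at -0.64 with intensities of 2025 and 3266 in vec against 1268 and 1591 in shpkp3-2. It was -1.18 without vec 1 and -0.11 without vec 2, where MMP11 at -0.19 lay lower, so that its value and its place as the lowest rest on vec 2. The highest was MMP23B at 0.69, with intensities of 71.8 and 72.4 in vec against 125 and 80.8 in shpkp3-2. It was 0.38 without shpkp3-2 1, where MMP25 at 0.64 was the highest. MMP19, a secreted enzyme, has 3 probes with log2 fold changes of 0.45, 0.20 and 1.22, and the last of these met the 2-fold rule. That probe read 12.6 and 11.7 in vec against 24.75 and 23.96 in shpkp3-2 (limma adjusted p = 0.0936). A fit that takes the RNA collection as a block called it (limma adjusted p = 0.00849), while with normexp background correction its log2 fold change was 0.42 (limma adjusted p = 0.363). The probes of MMP19 thus gave different sizes, and the brightest did not pass the threshold (limma adjusted p = 0.497).

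The inhibitors of the family were present at levels that could be tested for 5 of 7 genes, and limma called 0 of them, with 1 higher (A2M) and 1 lower (TIMP3) at an unadjusted p under 0.05, where all probes tested gave 7.36% higher and 4.98% lower. TIMP1 and TIMP2, secreted inhibitors of most metalloproteinases, had log2 fold changes of 0.29 and 0.20 (adjusted p = 0.562 and 0.733 from limma). Within the RNA collections TIMP2 was at -0.13 and 0.53, and the clones overlapped. TIMP3, which stays bound to the matrix, read 233 and 153 in vec against 70.8 and 98.2 in shpkp3-2. On the normalized scale the clones did not overlap, and the log2 fold change was -0.97 (SE 0.23, limma adjusted p = 0.216). RECK, a membrane anchored inhibitor, had 2 probes at 0.12 and -0.13. The clones overlapped for both, and within the RNA collections the brighter was at -0.09 and 0.32. TIMP4 was well above background on none of the arrays. A2M, a protease trap of blood plasma, was detected on 0 of 2 vec arrays, with intensities of 9.502 and 4.69, and on 2 of 2 shpkp3-2 arrays, with intensities of 20.7 and 21.5. It met the 2-fold rule. It was 2.55-fold higher in shpkp3-2 with each vec value raised, where lower, to the lowest value of a probe well above background on that array. That value is no strict limit of detection, so 2.55 is not a lower bound. The limma adjusted p was 0.0642, or 4.31e-05 with the collection as a block, but it belongs to a fitted log2 fold change of 1.87 on undetected vec values, and A2M had entered the test through the clone in which it was high, so that neither p supports the difference. The median of the inhibitors was 0.20, the value of TIMP2, also with A2M at 2.55-fold, and that of all probes tested was 0.05.

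Activating and docking proteins were tested for 9 of 9 genes, of which 7 had a positive and 2 a negative log2 fold change and limma called 0, with 2 higher and 1 lower at an unadjusted p under 0.05 (7.36% and 4.98% of all probes tested). Their median was 0.17, against 0.05 for all probes tested. CD44, a hyaluronan receptor that docks MMP7 at the cell surface, was the highest at 0.69 (limma adjusted p = 0.232), but without vec 1 CD151 was higher at 0.94. PLAU, the urokinase that makes plasmin, was the lowest at -0.95, with intensities of 4642 and 4087 in vec against 1958 and 1926 in shpkp3-2 (limma adjusted p = 0.145). BSG, or EMMPRIN, which induces metalloproteinases in neighbouring cells, had 2 probes at -0.22 and -0.03. The clones overlapped for both, and within the RNA collections the brighter was at -0.51 and 0.07. Of 9 substrates of MMP7, 8 could be tested, 3 had a positive and 5 a negative log2 fold change, and limma called 0, with 1 lower at an unadjusted p under 0.05 (4.98% of all probes). They ran from -0.78 for SPP1, or osteopontin, to 0.46 for CDH1, or E-cadherin, with a median of -0.30 (all probes 0.05). Without vec 1 SPP1 was -0.48 and SDC1 the lowest at -0.75, and without vec 2 CDH1 was 0.27 and TNF the highest at 0.40. SDC1, or syndecan-1, a proteoglycan of the cell surface, read -0.43 by its brighter probe and -1.01 by a dimmer one, and the dimmer probe had a limma adjusted p of 0.372, or 0.0422 when the RNA collection was a block. Of 8 sheddases of the related ADAM family 6 could be tested and limma called 0, with 1 lower at an unadjusted p under 0.05 (again 4.98% of all probes), from -0.66 for ADAM17 to 0.63 for ADAM15 and with a median of -0.0095. ADAM15 ran from 0.12 without vec 2 to 1.15 without vec 1, and ADAM8 at 0.20 was the highest without vec 2, where ADAM9 at -0.89 was the lowest.

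The PRL phosphatases were included because the study relates MMP7 to PRL-3, whose protein it reports as raised in the knockdown clones. It cites earlier work in which PRL-3 mRNA did not increase in HCT116 knockdown cells, and the arrays read RNA alone. PTP4A3, which encodes PRL-3, read 257 and 186 in vec against 134 and 163 in shpkp3-2, a log2 fold change of -0.35 (95% interval -0.82 to 0.12, adjusted p = 0.522 from limma) that was -0.20 without shpkp3-2 1. PTP4A1, which encodes PRL-1, was called higher by its brightest probe at 1.99 (limma adjusted p = 0.0433) and by another at 2.28 (adjusted p = 0.0114), while the probe at 1.41 was not (adjusted p = 0.0734, or 0.00177 with the RNA collection as a block). The brightest probe of PTP4A2, which encodes PRL-2, gave -0.01. Its other probes lay between -0.45 and -0.10, and limma called none of them.

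**Figure D4:**
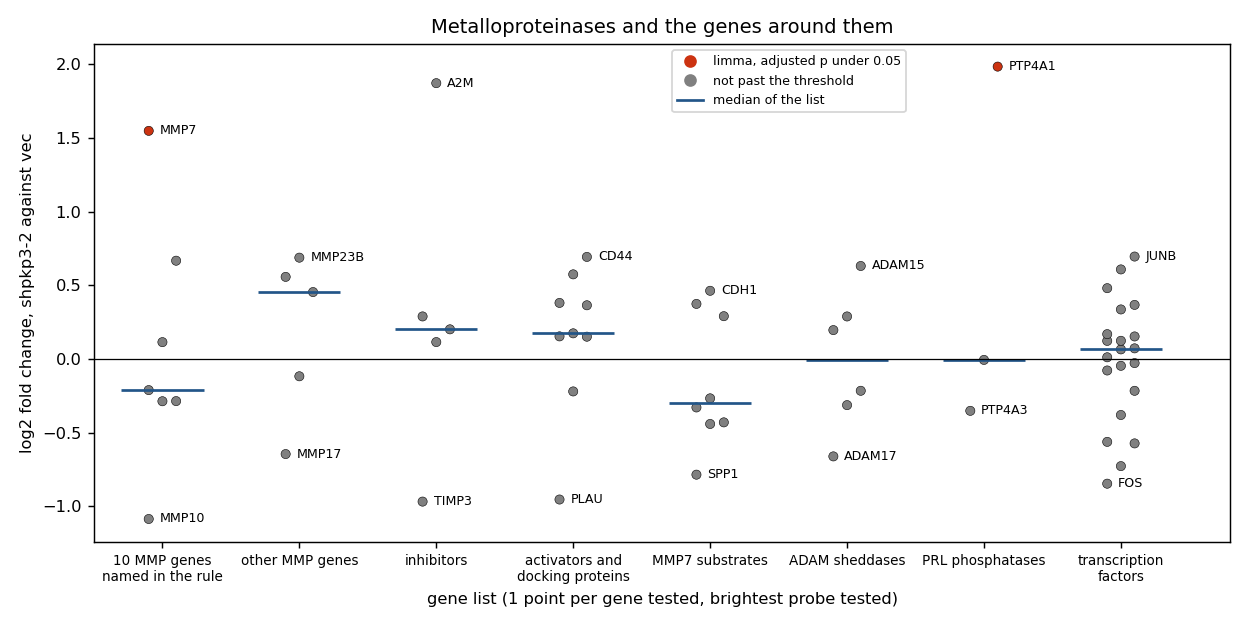
Log2 fold change of shpkp3-2 against vec for each tested gene of the 10 metalloproteinases and of 7 lists of related genes, 1 point per gene from its brightest tested probe, with a bar at the median of the list and names at its lowest and highest gene. Points of MMP7 and PTP4A1 are the ones past the adjusted threshold of limma, and the point of A2M is its fitted value, as neither vec array was well above background.

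The pattern of MMP7 over the arrays was most like that of SCARNA17, SLAMF7, KRT23, SDCBP2 and GUCA1B. Likeness was measured as the root mean square distance of the 4 normalized log2 values, each less its own mean, over 21614 probes with a RefSeq symbol that were well above background on all 4 arrays. The distance was 0.016 for SCARNA17, 0.029 for SLAMF7, 0.038 for KRT23, 0.051 for SDCBP2 and 0.055 for GUCA1B, and 8 probes lay within 0.1. KRT23, a type I keratin, went from 2.26 and 2.28 in vec to 3.91 and 3.78 in shpkp3-2 on the normalized log2 scale. The log2 fold changes of these 5 genes ran from 1.49 for GUCA1B to 1.58 for SCARNA17. With 4 arrays, the nearest probes are those with a log2 fold change of the same size and direction.

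**Figure D5:**
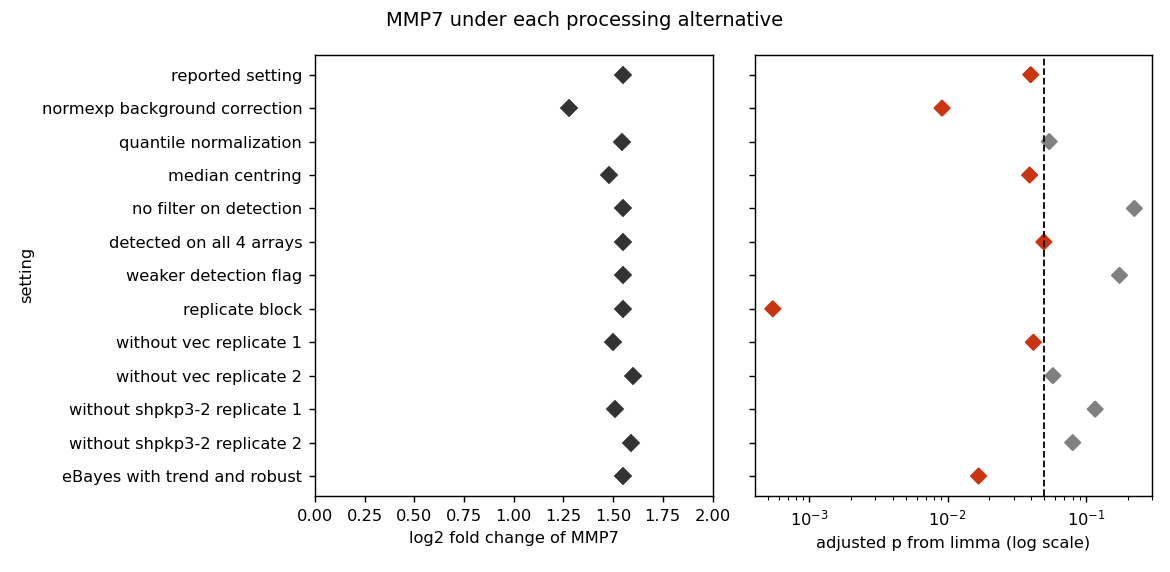
Log2 fold change of MMP7 (left) and its adjusted p from limma on a log scale (right) in the reported setting and in 12 alternatives, with the dashed line at 0.05. The log2 fold change lies between 1.28 and 1.60 in all of them, and the adjusted p lies between 0.000543 and 0.224 and is under the line in 6 of the 12 alternatives.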

How the data were processed

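Cy3 labeled RNA of 2 vec and 2 shpkp3-2 arrays was analysed, grouped by the clone names in the labels. The deposited tables hold the spot intensity written by Agilent Feature Extraction, on a linear scale after detrending and background subtraction and with no scaling between arrays. The labels name version 9.1 and the file headers 10.7.3.1, with an array design on hg18. Further deposited columns give the mean intensity and local background intensity of each spot, and flags, coded as 0 or 1, which are another kind of value. The 10 genes and all lists were chosen with earlier results of these data known.

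From the deposited intensities, log2 values were computed, and each array was centred on the 75th percentile of its non-control spots. Spots with the non-uniformity outlier flag, 26 to 39 per array, were left out and the spots of a probe averaged. Probes that a clone showed well above background on both of its arrays were fitted in R 4.3.3 by lmFit and eBayes of limma 3.58.1, without covariates and with Benjamini-Hochberg adjustment at 0.05. The fit was tested on simulated data. For genes with several probes, the brightest gives the value. Named were the 10 genes, PKP3, the TIMP genes, RECK, BSG, the PRL phosphatases, and the genes of each list that limma or the 2-fold rule called. The lowest and highest gene of each list other than the cell type markers, and the 5 genes nearest to MMP7, were also named. Named beside that rule, after their values were seen, were markers well above background on no array, CSF1R, MARCO, CD14, AIF1, LEF1 and CTNNB1. The same holds for genes that became the lowest or highest of a list when an array was left out, and for the genes of the chromosome 11 run.

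The design text pairs arrays of the same number by RNA collection. Over 30520 probes, which are not independent, the deviations of same-numbered arrays from their clone means correlated at -0.199. The fit without the pairing is given, as the methods of the study describe no pairing, and the fit with the collection as a block is an alternative. Others were normexp background correction (offset 50), quantile normalization, median centring, other detection filters, each array left out, a trended and robust prior, an adjusted p of 0.1, a 1.5-fold rule in place of the 2-fold rule (the study's material on these clones holds both limits) and the mean of the probes of a gene. The p-values measure the spread between arrays of the same clone. The number of arrays limits the precision. Motifs were searched and figures drawn with Python 3.11.15, pandas 2.3.3, numpy 2.4.6 and matplotlib 3.10.9.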

Additional observations from a re-analysis of the deposited data

How the results depend on the processing

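The log2 fold change of MMP7 kept its direction in all 12 alternatives, between 1.28 and 1.60, and limma called it in 6 of them. It was not called with quantile normalization (1.54, adjusted p = 0.0543 from limma), with no filter on detection (1.55, 0.224) or with the weaker detection flag (1.55, 0.175), and with an array left out it lay between 1.499 and 1.60 with adjusted p values of 0.0417 to 0.117. PKP3 was not called with no filter (-2.54, adjusted p = 0.135 from limma) or the weaker flag (-2.54, 0.145), and without an array it lay between -2.80 and -2.28. Both filters enlarge the set of probes tested.

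Of the metalloproteinase probes, 1 was called, against 0 with quantile normalization, no filter and the weaker flag, 2 with the replicate block (the other being MMP10, which entered the test through vec), and 0 to 1 with an array left out. The 2-fold rule took 1 of them, 2 with quantile normalization, 3 at 1.5-fold (MMP7, MMP9 and MMP10, the last tested through the clone in which it was high, against 6.88% of all probes tested) and 1 to 2 with an array left out. Reversed signs, none of them called, were MMP1 at 0.10 and MMP14 at 0.035 with normexp and MMP15 at -0.18 as the mean of its probes. With an array left out, MMP1 lay between -0.94 and 0.36 (positive without shpkp3-2 1), MMP14 between -0.66 and 0.086 (positive without vec 2), MMP11 between -0.28 and 0.051 (positive without shpkp3-2 1) and the second MMP19 probe between -0.034 and 0.44 (negative without vec 1). The cause was not tested.

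Over all probes, limma called 76 higher and 45 lower. It called 42 higher with quantile normalization, 10 and 8 with no filter, 25 and 21 with detection on all 4 arrays, 1 and 1 with the weaker flag, and 503 and 338 with the replicate block, which changed no other call of a metalloproteinase than that of MMP10 and of the third MMP19 probe. With the numbers crossed, chosen after seeing the data, the replicate block called 64 higher, 40 lower and 0 metalloproteinase probes. With an array left out the counts were 106 to 243 and 55 to 152. The 2-fold rule gave 341 higher and 190 lower, 1292 and 808 at 1.5-fold, 104 and 55 with normexp, 661 and 519 with no filter, 202 and 120 with detection on all 4 arrays, 661 and 454 with the weaker flag, and 431 to 1179 and 320 to 675 with an array left out. Where an array is dropped, the lone array of its clone is taken to vary like the arrays of the other clone. MMP10 left the test where detection on all 4 arrays was required. Signals near background limit what can be said of MMP2, MMP3, MMP10 and MMP13.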
